A study of Mus musculus with 2 samples.

Results

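The enzymes of the tricarboxylic acid (TCA) cycle were followed as messenger RNA in 456 single mouse muscle stem cells, which lie along the muscle fibres and repair them. The list named 9 enzymes, and 8 of them were found by symbol among the 21216 genes of the count tables: Cs, Idh3a, Idh3b, Idh3g, Ogdh, Suclg1, Fh1 and Mdh2. Idh2, the ninth, was not analysed here. The tables identify them by Ensembl gene, as ENSMUSG00000005683 (Cs), ENSMUSG00000032279 (Idh3a), ENSMUSG00000027406 (Idh3b), ENSMUSG00000002010 (Idh3g), ENSMUSG00000020456 (Ogdh), ENSMUSG00000052738 (Suclg1), ENSMUSG00000026526 (Fh1) and ENSMUSG00000019179 (Mdh2). Cells were sorted singly into the wells of plates and their polyadenylated RNA was counted by a modified form of CEL-Seq2, where each well has its own barcode and each copied molecule a short random tag (UMI).

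On plate 2 were 121 cells cultured in 10 mM galactose and 120 cultured in 5 mM glucose (low glucose), and on plate 1 were 113 cells cultured in 25 mM glucose (high glucose) and 102 freshly isolated cells, whose wells are labelled quiescent. Culture lasted 96 h, in DMEM with serum of fetal bovine and horse origin at 10% each, chick embryo extract at 0.05%, bFGF at 2.5 ng/ml, antibiotics and 1 mM sodium pyruvate. Pyruvate, a direct fuel of the cycle, was thus present in all culture media. Strain, age, sex and sorting markers: not given in the sources used here.

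By the labels there was 1 sample per plate, shared by 2 conditions, and each condition took 6 rows of its plate. There is thus 1 set of wells per condition and no replicate, since cells of a plate are not replicates, and no test between conditions was run. Levels are given in CPM, counts per 1000000 summed gene counts of a condition, and these summed counts are called its pool. Every interval is an exact 95% interval that covers counting error only, and PCR copies that tags do not resolve are not covered. The pools held 2035682 gene counts in galactose, 1734279 in low glucose, 887611 in high glucose, against 284109 in freshly isolated cells, with medians of 14496, 13371, 6747 and 2536 per cell in the same order. A comparison between the plates cannot be told apart from the plate, and a comparison within a plate cannot be told apart from the plate rows. All 9 stem cell and myoblast markers looked up, among them Pax7, Myod1 and Myf5, had counts in every pool.

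The TCA cycle runs in the mitochondrial matrix, where it oxidises acetyl-CoA to carbon dioxide and hands electrons to the respiratory chain. Citrate synthase (Cs) joins acetyl-CoA to oxaloacetate, isocitrate dehydrogenase (subunits Idh3a, Idh3b and Idh3g) and the 2-oxoglutarate dehydrogenase complex (Ogdh with Dlst and Dld) carry out the oxidative decarboxylations, succinyl-CoA ligase (Suclg1) makes succinate, fumarase (Fh1) makes malate, and malate dehydrogenase (Mdh2) restores oxaloacetate. Muscle stem cells are known to change their use of glycolysis and respiration when they leave quiescence, and citrate exported from the cycle is a source of acetyl-CoA for histone acetylation.

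Promoters of the enzymes were searched for letters bound by factors known to act on mitochondrial genes, on both strands, in the RefSeq windows (build GRCm38.p6) of 300 bases that run from 250 bases before to 50 bases after a start. Windows were listed for 7 of the 8 genes, 12 in all, with none for Idh3a. The letters TGACGTCA, the palindrome of the cyclic AMP response element, were found in windows of Mdh2 and Ogdh, 4 of the 12, and in 1.79% of all 32851 windows. The letters CCGGAAG, the core of ETS family sites, were found in windows of Idh3b and Idh3g, and in 8.86% of all windows. A site of each of these 4 genes is shown because these motifs were the ones found in more than 1 gene. Capitals mark the match, written along the gene's own strand:
Mdh2, chr5:135778512-135778539, plus strand: gagagaatcgTGACGTCAggcctcgctc
Ogdh, chr11:6291536-6291563, plus strand: cccaattctgTGACGTCAcgtcacgccc
Idh3b, chr2:130284440-130284466, minus strand, match on the opposite strand: accgcgctcgCTTCCGGcgtcacttcc
Idh3g, chrX:73786985-73787011, minus strand: gctctaggcaCCGGAAGggggcgtaag

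The Ogdh match lies in 3 overlapping windows of that gene, so it counts 3 times among the 4. CACGTG, the E-box, was found in 3 windows, all of Ogdh (7.15% of all windows), and AAGGTCA, a nuclear receptor half-site, in 1 Ogdh window (4.72% of all windows). TCAAGGTCA, which contains that half-site, and the NRF1 motif were found in none of the 12, against 0.423% and 0.971% of all windows. These are matches of letters and show no binding. In high glucose over freshly isolated cells, the CPM ratio was 1.33 for Mdh2 (interval 1.09 to 1.63) and 0.842 for Ogdh (0.574 to 1.26). These ratios lay on either side of 1, and the overlap of their intervals shows neither likeness nor difference. A link between the TGACGTCA letters and the levels was not tested.

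Summed over the 8 enzymes, the level was 1852 CPM in galactose (interval 1793 to 1912), 1795 CPM in low glucose (1732 to 1859), 1459 CPM in high glucose (1381 to 1541) and 1105 CPM in freshly isolated cells (986 to 1234). The sum thus ran highest in the plate 2 cultures, lower in high glucose and lowest in freshly isolated cells, and the intervals of galactose and low glucose overlapped. Sums of single plate rows reached from 1575 to 2006 CPM in galactose, from 1615 to 1906 in low glucose, from 1273 to 1641 in high glucose and from 722 to 1353 in freshly isolated cells. Neighbours in this order overlapped between their rows in every case.

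**Figure D1:**
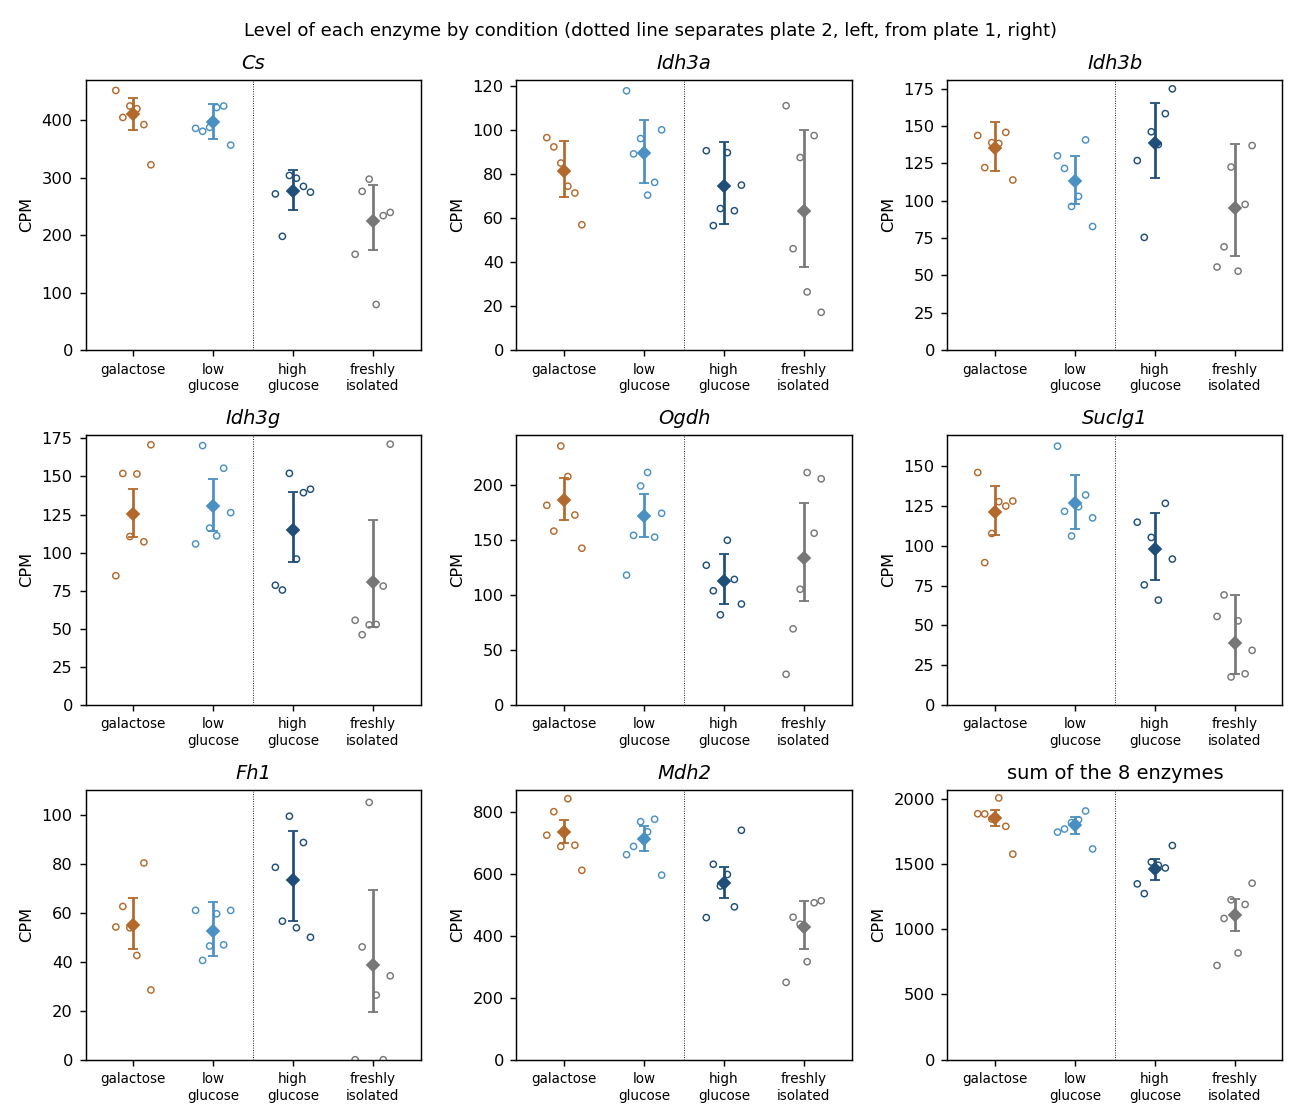
Level in CPM of each of the 8 enzymes and of their sum in the 4 conditions. Diamonds are the pools with exact Poisson 95% intervals, open circles are the 6 plate rows of a condition (parts of the same plate, not replicates), and the dotted line separates the plates. Cs stood at 397 CPM in low glucose and 277 CPM in high glucose with no overlap of rows, whereas Fh1 was at 52.5 CPM in low glucose and 73.2 CPM in high glucose.

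Culture in high glucose was set against fresh isolation within plate 1. Mdh2 had 570 CPM in high glucose and 429 CPM in freshly isolated cells, a ratio of 1.33 (interval 1.09 to 1.63), from 506 and 122 counts. Cs had 277 CPM in high glucose and 225 CPM in freshly isolated cells, a ratio of 1.23 with an interval that includes 1 (0.931 to 1.65). Suclg1, the shared alpha subunit of succinyl-CoA ligase, had the highest ratio of the 8, with 98.0 CPM in high glucose and 38.7 CPM in freshly isolated cells (ratio 2.53, 1.35 to 5.26). Its counts were 87 in high glucose, against 11 in freshly isolated cells, and after thinning to 1000 counts per cell its ratio was 2.004 with an interval that includes 1 (0.642 to 7.36), which ends the call. Its plate rows overlapped, at 65.8 to 127 CPM in high glucose and 17.5 to 69.1 CPM in freshly isolated cells, as did those of the other 7 enzymes, beside 12.3% of genes whose rows did not overlap.

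Fh1 was also based on 11 counts in freshly isolated cells, with 73.2 CPM in high glucose and 38.7 CPM in freshly isolated cells (ratio 1.89, 0.990 to 3.97). These 11 counts came from 7 cells, and 1 cell held 4 of them. Ogdh, the subunit that binds 2-oxoglutarate, stood the other way, with 113 CPM in high glucose and 134 CPM in freshly isolated cells, but its interval includes 1 (ratio 0.842, 0.574 to 1.26). With every cell thinned to 1000 counts its ratio was 1.46, and with equal weight per cell 1.12, so no direction can be given for Ogdh.

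The subunits of the NAD-dependent isocitrate dehydrogenase were compared in the same way. Idh3a, the catalytic subunit, had 74.4 CPM in high glucose and 63.4 CPM in freshly isolated cells (ratio 1.17, 0.689 to 2.10). Idh3b had 139 CPM in high glucose and 95.03 CPM in freshly isolated cells (ratio 1.46, 0.955 to 2.30). Idh3g had 115 CPM in high glucose and 81.0 CPM in freshly isolated cells (ratio 1.42, 0.896 to 2.34). The intervals of all 3 subunits include 1 and overlap one another, but they are too wide to show that the ratios were alike.

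A call needed a ratio of 1.5 or more in one direction, an interval that left out 1 and a mean of at least 10 CPM over the pools compared. By this rule 1 of the 8 enzymes, Suclg1, was higher in high glucose than in freshly isolated cells, none was lower and 7 were neither. Of all 8882 genes with a mean of at least 10 CPM, 21.7% were called higher and 13.4% lower. By fold alone, without the interval, 2 of the 8 (Suclg1 and Fh1) were higher and none lower, beside 40.9% and 20.9% of genes. The ratio of the summed enzymes was 1.32 (1.17 to 1.498), beside a median ratio of 1.28 over all these genes, and the median over the 8 enzymes was 1.37. The share of the 8 called was thus not above the background. With TMM factors the summed ratio was 1.11 (0.979 to 1.26) and with median-of-ratios factors 1.08 (0.955 to 1.23). These factors moved the median log2 ratio of all genes by -0.24 and -0.28.

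Relative to the spike-ins, synthetic RNAs added to each well, the counts of every enzyme were higher in high glucose. The sum was 87.9 counts per 1000 spike-in counts in high glucose, against 21.7 in freshly isolated cells, a ratio of 4.05 (3.58 to 4.60), with ratios from 2.58 for Ogdh to 7.77 for Suclg1. Spike-in scaling moved the median log2 ratio of all genes by 1.56, so this difference was shared with the genes as a whole. The median ratio of gene to spike-in counts per cell was 57.0 in high glucose, against 18.3 in freshly isolated cells.

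**Figure D2:**
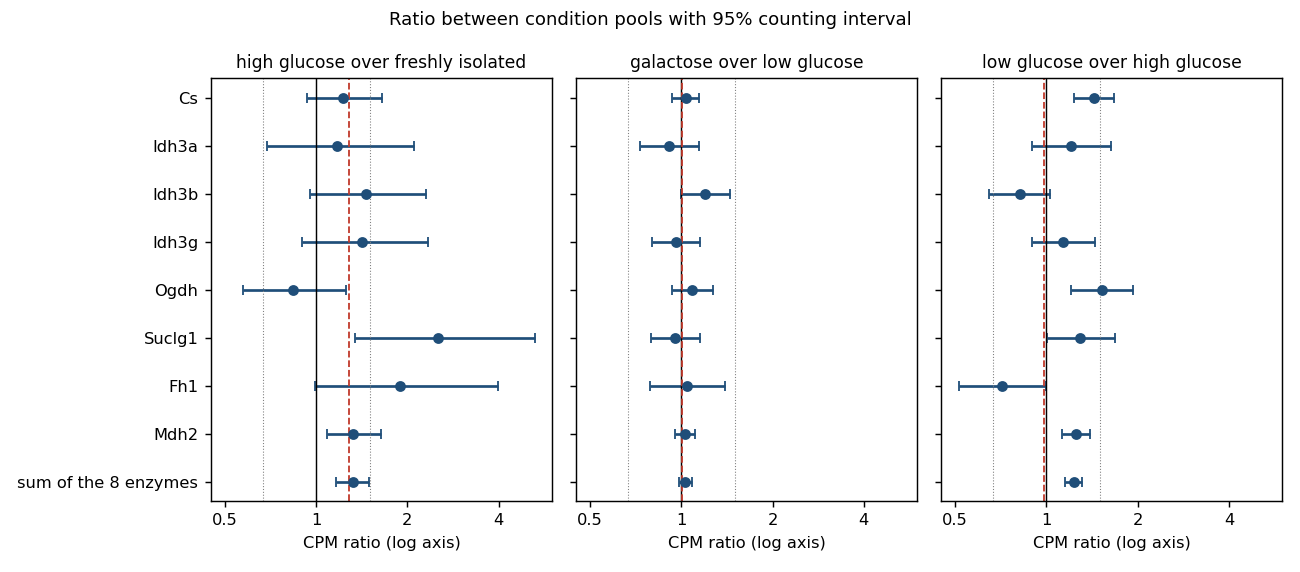
CPM ratios of the 8 enzymes and their sum for the 3 comparisons, on a log axis, with exact 95% intervals. The solid line marks 1, the dotted lines 1.5-fold in either direction, and the dashed line the median ratio of all genes with a mean of at least 10 CPM. Galactose over low glucose is narrow around 1 for all 8, while high glucose over freshly isolated cells spreads from 0.842 for Ogdh to 2.53 for Suclg1.

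Galactose was set against low glucose within plate 2, where both conditions were deeply sequenced. Cells supplied with galactose in place of glucose draw more of their energy from respiration. The media differed in the sugar and in its concentration, 10 mM galactose against 5 mM glucose, and the conditions lay in different plate rows. Mdh2 had 736 CPM in galactose and 714 CPM in low glucose (ratio 1.03, 0.955 to 1.11). Cs had 411 CPM in galactose and 397 CPM in low glucose (ratio 1.03, 0.933 to 1.15). These transcripts had the most counts of the 8 and the narrowest intervals.

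The farthest of the 8 from 1 was Idh3b, with 136 CPM in galactose and 113 CPM in low glucose (ratio 1.20, 0.995 to 1.45), and its plate rows overlapped, at 114 to 146 CPM in galactose and 82.7 to 141 CPM in low glucose. The ratio of its partner Idh3a was 0.912 (0.729 to 1.14) and that of Idh3g 0.961 (0.801 to 1.15). Ogdh had 186 CPM in galactose and 171 CPM in low glucose (ratio 1.09, 0.931 to 1.27). Suclg1 had a ratio of 0.956 (0.794 to 1.15) and Fh1 of 1.05 (0.788 to 1.40), the widest interval of the 8.

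None of the 8 enzymes was called higher or lower in galactose, beside 1.53% and 1.25% of the 8689 genes with a mean of at least 10 CPM. By fold alone none was either, beside 3.23% and 2.65% of genes. Plate rows overlapped for all 8, beside 0.265% of genes whose rows did not. The summed ratio was 1.03 (0.984 to 1.08), beside a median of 1.01 over all genes. Per 1000 spike-in counts the sum was 96.1 in galactose and 90.4 in low glucose, a ratio of 1.06 (1.01 to 1.11). By this scaling the median log2 ratio was 0.05 over all genes and 0.09 over the 8 enzymes. All intervals of single enzymes lay between 0.729 and 1.45, so a difference of 1.5-fold or more lay outside the interval of each of the 8.

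Low glucose could be set against high glucose only across the plates, so the medium cannot be told apart from the plate. High glucose is also the pool that was set against freshly isolated cells above, so these comparisons share its counting error. Cs had 397 CPM in low glucose and 277 CPM in high glucose (ratio 1.43, 1.24 to 1.66). Its plate rows lay between 357 and 425 CPM in low glucose and between 198 and 304 CPM in high glucose, and Cs was the only one of the 8 whose rows did not overlap in this comparison, beside 4.44% of genes. Mdh2 had 714 CPM in low glucose and 570 CPM in high glucose (ratio 1.25, 1.13 to 1.39).

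Ogdh had 171 CPM in low glucose and 113 CPM in high glucose (ratio 1.52, 1.21 to 1.93) and was the 1 enzyme called higher, beside 7.98% of 8852 genes. Fh1 stood on the other side, with 52.5 CPM in low glucose and 73.2 CPM in high glucose (ratio 0.717, 0.515 to 1.001), and none of the 8 was called lower, beside 10.7% of genes. By fold alone the counts were the same, 1 and 0, beside 12% and 15.9% of genes. Idh3b was likewise below 1 (0.816, 0.648 to 1.03), whereas Suclg1 had a ratio of 1.29 (1.01 to 1.68), Idh3a of 1.20 (0.896 to 1.63) and Idh3g of 1.13 (0.894 to 1.45). The summed ratio was 1.23 (1.15 to 1.31), beside a median of 0.980 over all genes. By spike-in scaling it was 1.03 (0.964 to 1.10), and no enzyme was then called higher while Fh1, at 0.599, was called lower. This scaling put the median log2 ratio of all genes at -0.28, and the shares of all genes called under it are not given here. After thinning to 1000 counts per cell the Ogdh ratio was 1.11 and was not called.

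Galactose gave ratios to high glucose of the same kind, but it shares the plate with low glucose and the high glucose pool with the comparison above. They were 1.48 (1.28 to 1.72) for Cs, 1.65 (1.32 to 2.08) for Ogdh, 1.29 (1.17 to 1.43) for Mdh2 and 0.751 (0.549 to 1.04) for Fh1. These values add no independent evidence for a difference between the plates.

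In single cells the enzymes were detected more often in the deeper pools. Mdh2 had a count in 119 of 121 galactose cells, 118 of 120 low glucose cells, 100 of 113 high glucose cells and 67 of 102 freshly isolated cells. Its median count per cell was 10, 8.5, 4 and 1 in the same order. At the other end Fh1 had a count in 62 galactose, 54 low glucose, 42 high glucose and 7 freshly isolated cells. At least 1 of the 8 enzymes had a count in every galactose and low glucose cell, in 109 high glucose cells and in 89 freshly isolated cells.

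To remove the effect of depth, every cell was thinned to 1000 gene counts, which left out 1 high glucose cell. Mdh2 then had a count in 48.8% of galactose cells (39.6 to 58.0), 55.0% of low glucose cells (45.6 to 64.1), 40.2% of high glucose cells (31.0 to 49.9) and 28.4% of freshly isolated cells (19.9 to 38.2). Cs had a count in 40.5% (31.7 to 49.8), 36.7% (28.1 to 45.9), 17.0% (10.53 to 25.2) and 19.6% (12.4 to 28.7) of cells in that order. Cells with no count of any of the 8 made up 15.7% in galactose, 15.8% in low glucose, 30.4% in high glucose (22.02 to 39.8) and 37.3% in freshly isolated cells (27.9 to 47.4). The other 6 enzymes had thinned shares from 0.980% to 20.7%, too few for an order between conditions.

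The thinned counts of the summed enzymes varied between cells about as much as counting alone gives. Their variance was 0.968 times the mean in galactose, 0.932 in low glucose, 1.11 in high glucose, against 1.07 in freshly isolated cells, where pure counting error gives 1. Spread between cells beyond counting error was not detectable at this depth. The mean thinned sum was 1.84 counts in galactose, 1.98 in low glucose, 1.31 in high glucose, against 1.04 in freshly isolated cells.

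**Figure D3:**
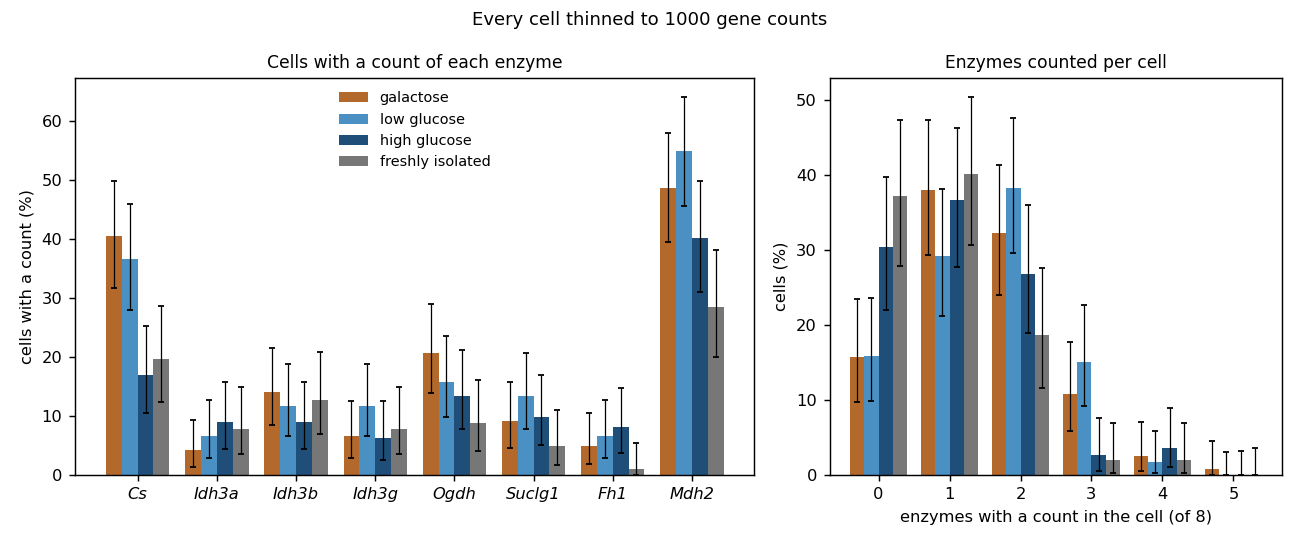
Left, share of cells with a count of each enzyme, and right, share of cells by the number of enzymes with a count, in the 4 conditions after thinning each cell to 1000 gene counts. Bars are percent of cells and error bars exact binomial 95% intervals. Mdh2 was seen in 48.8% of galactose and 28.4% of freshly isolated cells, and most cells showed 0 to 2 of the 8 enzymes.

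Counts of one enzyme per count of another within a pool do not depend on how the pools are scaled. These pairs were chosen after the values were seen, 11 pairs in all. Some shares of the summed counts were close in the 4 conditions and others were not. Mdh2 made up 39.8% of the summed counts in galactose, 39.8% in low glucose, 39.1% in high glucose, against 38.9% in freshly isolated cells. The ratio of Mdh2 to Cs counts was 1.79 in galactose, 1.80 in low glucose, 2.06 in high glucose, against 1.91 in freshly isolated cells, with overlapping intervals. Idh3g per Idh3a was 1.54, 1.46, 1.55 and 1.28 in the same order, also with overlapping intervals.

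Idh3b made up 7.32% of the summed counts in galactose (6.51 to 8.20), 6.30% in low glucose (5.47 to 7.21), 9.498% in high glucose (7.96 to 11.2) and 8.599% in freshly isolated cells (5.74 to 12.3). The intervals of low glucose and high glucose did not overlap. Idh3b per Idh3a was 1.26 in low glucose and 1.86 in high glucose, a quotient of 0.679 (0.462 to 0.993) that runs across the plates. Suclg1 made up 6.55% in galactose (5.78 to 7.39), 7.07% in low glucose (6.19 to 8.02), 6.72% in high glucose (5.42 to 8.22) and 3.50% in freshly isolated cells (1.76 to 6.18). Its interval in freshly isolated cells overlapped those of galactose and high glucose. It ended barely below that of low glucose, at 6.18 against 6.19, and that comparison runs across the plates.

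In the 2-oxoglutarate dehydrogenase complex the count ratio of Ogdh to Dlst ran from 0.735 in high glucose to 1.65 in freshly isolated cells. Ogdh, the first enzyme of the complex, had 1.26 counts per count of Dlst, the succinyltransferase core, in galactose (1.08 to 1.47). In low glucose it had 1.09 (0.923 to 1.29). In high glucose it had 0.735 (0.562 to 0.959) and in freshly isolated cells 1.65 (0.959 to 2.90). The quotient of high glucose over freshly isolated cells was 0.446 (0.238 to 0.823) and that of low glucose over high glucose 1.48 (1.08 to 2.04). Both quotients use the same high glucose counts, so they are not independent, and the second runs across the plates. This pair was also among those chosen after the values were seen. Dlst per Dld, the dehydrogenase shared with pyruvate dehydrogenase, was 1.22, 1.18, 1.25 and 1.00 in galactose, low glucose, high glucose and freshly isolated cells, with intervals that overlap. Against Dld, the Ogdh quotient of high glucose over freshly isolated cells was 0.556 with an interval that includes 1 (0.295 to 1.03). Against Cs it was 0.685, also with an interval that includes 1 (0.421 to 1.12). For low glucose over high glucose, across the plates, the Ogdh quotient was 1.41 (1.01 to 1.97) against Dld and 1.06 (0.804 to 1.40) against Cs.

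Fh1 per Mdh2 was also among the pairs chosen after the values were seen. Fh1 had 0.0747 counts per count of Mdh2 in galactose (0.0611 to 0.0906) and 0.0734 in low glucose (0.0587 to 0.0909), against 0.128 in high glucose (0.0976 to 0.167). Freshly isolated cells stood at 0.0902 with a wide interval (0.0439 to 0.167). The quotient of low glucose over high glucose was 0.572 (0.404 to 0.813), and it runs across the plates. The share of Fh1 in the summed counts was 2.97% in galactose, 2.92% in low glucose, 5.02% in high glucose, against 3.50% in freshly isolated cells.

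**Figure D4:**
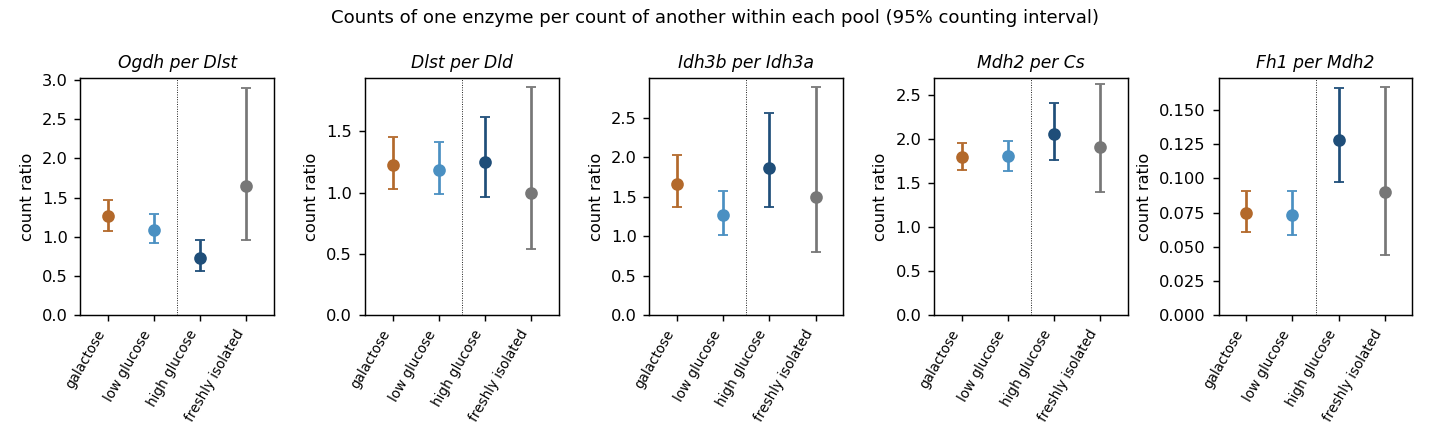
Counts of one enzyme per count of another in each pool for 5 of the 11 pairs, with exact 95% intervals. The dotted line separates plate 2, left, from plate 1, right. Ogdh per Dlst was lowest in high glucose, at 0.735, and Fh1 per Mdh2 highest there, at 0.128, while Mdh2 per Cs lay between 1.79 and 2.06.

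The other subunits of the cycle were looked up as a list of 10, of which 8 had a mean of at least 10 CPM. In high glucose over freshly isolated cells 3 of these were called higher, none lower and 5 neither, beside the 21.7% and 13.4% of all genes given above. The higher ones were Dlst at 153 against 81.0 CPM (ratio 1.89, 1.21 to 3.09) and the membrane subunits of succinate dehydrogenase, Sdhc (2.28, 1.37 to 4.04) and Sdhd (3.72, 1.81 to 8.87). In freshly isolated cells these rested on 23, 17 and 8 counts in that order. The median log2 ratio of the measured members of this list was 0.94, beside 0.45 for the 8 enzymes and 0.34 for all genes. It was 0.69 with TMM and 0.66 with median-of-ratios factors.

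In galactose over low glucose none of these 8 subunits was called in either direction (median -0.06), beside 1.53% of all genes called higher and 1.25% lower. In low glucose over high glucose none was called (median 0.22, and -0.04 by spike-in scaling), beside 7.98% and 10.7% of all genes. Sdha and Sucla2, which mitochondria generally need, had 3 counts and 1 count in all pools together, so the tables give no usable level for them, and this was not read as absence.

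Of the 3 cytosolic counterparts, 2 were measured in high glucose over freshly isolated cells. Mdh1, the cytosolic malate dehydrogenase, was called higher, at 76.6 against 31.7 CPM (ratio 2.42, 1.20 to 5.51), from 68 and 9 counts. That is 1 of 2 higher and 0 lower, beside 21.7% and 13.4% of all genes. Aco1, the cytosolic aconitase, had a ratio of 1.92 with an interval that includes 1 (0.802 to 5.58). Idh1 was under 10 CPM in that comparison. In low glucose over high glucose, across the plates, Idh1 was the 1 of 3 called higher, from 30 and 5 counts, beside 7.98% of all genes. By spike-in scaling its interval included 1 (0.987 to 8.48). None of the 3 was called in galactose over low glucose, beside 1.53% of all genes called higher and 1.25% lower.

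Enzymes and carriers that feed or drain the cycle had 10 measured members of 16 looked up. In high glucose over freshly isolated cells 2 were called higher, 1 lower and 7 neither (median 0.65), which is about the 21.7% and 13.4% of all genes. Glud1, which turns glutamate into 2-oxoglutarate, had 214 CPM in high glucose and 113 CPM in freshly isolated cells (ratio 1.90, 1.30 to 2.86). Got2, the mitochondrial aspartate transaminase, had 154 CPM in high glucose and 84.5 CPM in freshly isolated cells (ratio 1.83, 1.18 to 2.95). Slc25a1, the citrate exporter, was the lower one (ratio 0.494, 0.287 to 0.862), but its ratio was 1.51 by spike-in scaling. In low glucose over high glucose, across the plates, Got1 (1.73) and Me2 (1.96) were called higher and none of the 10 lower. Of all genes 7.98% were called higher and 10.7% lower. By spike-in scaling the Got1 ratio was 1.45, under the 1.5-fold limit, and the Me2 ratio 1.64. In galactose over low glucose none of the 10 was called, beside 1.53% of all genes higher and 1.25% lower.

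Pyruvate dehydrogenase and its regulators had 7 measured members of 10. In high glucose over freshly isolated cells Dlat, the acetyltransferase core, was higher (2.47, 1.31 to 5.14, from 85 and 11 counts). Pdk4, a kinase that inhibits the complex, and Pdp1, a phosphatase that activates it, were lower. These were 1 of 7 higher and 2 of 7 lower, beside 21.7% and 13.4% of all genes. Pdk4 had 159 CPM in high glucose and 296 CPM in freshly isolated cells (ratio 0.537, 0.407 to 0.713, and 1.65 by spike-in scaling), and Pdp1 had a ratio of 0.320 (0.160 to 0.639, and 0.982 by spike-in scaling). Pdha1, the catalytic subunit, had a ratio of 1.21 (0.821 to 1.84). In galactose over low glucose Pdp1 (0.476, 0.257 to 0.859) and Pdp2 (0.511, 0.283 to 0.903) were called lower, from 19 against 34 and 21 against 35 counts. None of the 7 was called higher there, beside 1.25% of all genes called lower and 1.53% higher. None was called in low glucose over high glucose, across the plates, beside 7.98% of all genes called higher and 10.7% lower.

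Genes with a profile over the 4 conditions most like that of the summed enzymes were sought among 3949 other genes with a mean of at least 50 CPM. Likeness was the root mean square distance between the centred log2(CPM + 1) values, over 4 points only. Among the 5 nearest were Gm12254 at 0.018, Babam1 at 0.019, Pard3 at 0.021 and Pdap1 at 0.022. Gm12254 had 272 CPM in galactose, 265 in low glucose, 209.6 in high glucose and 158 CPM in freshly isolated cells.

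Markers of several other cell types, though not the immune and tenocyte lists, had their highest sums in freshly isolated cells. So did the 9 muscle stem cell and myoblast markers, at 6262 CPM against 1809 in galactose, 1759 in low glucose and 1663 in high glucose. Smooth muscle and pericyte genes, 6 of 6 looked up, summed to 60.9 CPM in galactose, 71.5 in low glucose, 189 in high glucose, against 493 in freshly isolated cells. Fibro-adipogenic genes, 4 of 6 looked up, summed to 31.4, 39.2, 135 and 1091 CPM in the same order, with Dcn at 0 in galactose, high glucose and freshly isolated cells, and endothelial genes, 5 of 5, to 4.42, 5.77, 40.6 and 81.0 CPM. Immune, glial, tenocyte and mature myofibre genes, 2 to 3 of each looked up, stayed between 0 and 31.7 CPM, with tenocyte genes at 10.4 CPM in low glucose and 0 in freshly isolated cells, and the erythroid genes were not analysed here. Wells that held at least 3 markers of a single other type numbered 3 in high glucose, 6 in freshly isolated cells and 0 in galactose and in low glucose. Without these wells the summed ratio of high glucose over freshly isolated cells was 1.35 (1.19 to 1.55).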

How the data were processed

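Raw counts per gene and well were deposited by the authors with no normalization: every value was a whole number, totals differed between wells, and the highest value was 1564, under the 4096 tags that 6 bases allow. Per the labels, the UMI took 6 bases of read 1. Aligner, counter, build, annotation and any collapsing by UMI: not given in the sources used here. Per the submitters' processing notes, edgeR was used, with no version or role stated. The condition of each well came from the deposited well sheet. The plates share 200 well barcodes, which are reused by design and mark different wells.

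Wells were kept from 500 gene counts and 250 genes upward (456 of 457; the dropped high glucose well had 8 counts). Symbols came from GENCODE M21 names for 99.6% of genes. Spike-ins stayed out of totals. Ratios of pool CPM carry exact conditional (Clopper-Pearson) 95% intervals, CPM exact Poisson intervals, and quotients of count pairs exact conditional odds ratio intervals, none adjusted for the number of comparisons. Log2 ratios of lists used a pseudocount of 1 CPM. No doublet caller was run. The ratio intervals and the call rule were tested on simulated pools that held counting error only. Variation between wells, rows or plates and the other steps were not tested this way. Context genes named are the 2 of each list with most counts and the 2 whose high glucose over freshly isolated interval lay farthest from 1. Others were named after their values were seen. A few genes that these rules select are not reported here. The members, lists and rules were chosen with earlier results of these data known. Alternatives were TMM, median-of-ratios and spike-in scaling, equal weight per cell, other minimums, mitochondrial genes out, thinning and a correction for the number of tags. Leaving out wells with markers of another type was added after the data were seen. Tools were Python 3.11.15, scipy 1.17.1, R 4.3.3 and edgeR 4.0.16 (TMM factors).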

Additional observations from a re-analysis of the deposited data

How the results depend on the processing

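No paired analysis was possible because each condition was 1 set of wells on 1 plate, with no replicates to pair. For high glucose over freshly isolated cells the summed ratio was 1.32 and moved to 1.11 with TMM factors, 1.08 with median-of-ratios factors and 4.05 with spike-in scaling. The number of enzymes called higher, 1 as reported, was 8 with spike-in scaling, 2 after thinning (Fh1 and Mdh2, without Suclg1) and 2 without wells that held markers of another cell type (Suclg1 and Idh3b). Shares of all genes called under the alternatives are not given here, so these numbers have no background beside them. Spike-in scaling put the median log2 ratio of all genes at 1.89 here. The thinned Fh1 call rested on 1 count in freshly isolated cells. For galactose over low glucose the summed ratio of 1.03 was 0.929 after thinning (0.771 to 1.12), and no enzyme was called under any alternative. For low glucose over high glucose the summed ratio of 1.23 was 1.32 with TMM factors, 1.51 after thinning and 1.03 with spike-in scaling. The number called higher, 1 as reported, was 2 with TMM factors (Ogdh and Cs), 2 after thinning (Cs and Mdh2) and 0 with spike-in scaling, and the number called lower was 1 (Fh1) with spike-in scaling and 0 as reported. The cause was not tested. Thinning leaves few counts, and spike-in scaling changes the question from share of the RNA to amount per spike-in. The other 76 of 90 values for the sum and the numbers called, and 212 of 240 for single enzymes, stayed within the interval or the 1.5-fold limit. This tally does not measure robustness. In galactose over low glucose some alternatives removed no well, so their values could not move. Wide intervals also hold large shifts: the thinned Suclg1 ratio of high glucose over freshly isolated cells counts as within, although its call ended. Apart from spike-in scaling and thinning, Suclg1 in high glucose over freshly isolated cells ran from 2.07 to 2.69 and Fh1 in low glucose over high glucose from 0.710 to 0.805. Depth limits the freshly isolated pool most, where 3 counts correspond to 10.6 CPM.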
